A study of Mus musculus with 49 samples.

Results

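Renal SLC22 organic ion transporters were followed through ischemia/reperfusion injury (IRI) of the mouse kidney. These are 9 genes, Slc22a2, Slc22a4, Slc22a5, Slc22a6, Slc22a7, Slc22a8, Slc22a12, Slc22a13 and Slc22a19, taken by symbol from a whole-kidney RNA-seq table of 43309 genes. All 9 reached at least 1 FPKM in at least 3 libraries and were among the 14895 genes fitted. FPKM scales the reads of a gene by its transcript length and by the depth of its library, so levels of different genes can be set side by side. Male C57BL/6NCrl mice aged 10 to 12 weeks had both renal pedicles clamped for 21 minutes, and kidneys were taken at 2, 4, 24, 48 and 72 hours, at 7, 14 and 28 days, and at 6 and 12 months (IRI2h to IRI12m, 3 libraries each and 4 at IRI6m). Sham mice had the operation without clamping, with kidneys taken at 4 hours, 24 hours and 12 months (SHAM4h, SHAM24h and SHAM12m, 3 libraries each). Mice without surgery were 3, 9 or 15 months old (NORM3m, NORM9m and NORM15m, 3 libraries each). All 49 libraries were whole-kidney RNA, so fewer proximal tubule cells and less RNA per cell cannot be told apart. Libraries of a group are given in the order of their replicate numbers. The p-values rest on the spread of each gene between libraries, pooled over all 16 groups and adjusted towards that of other genes. A gene that varied widely in some groups therefore has wide errors also in groups where its libraries lie close.

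Proximal tubule cells take drugs, toxins and metabolic waste from blood through transporters in the basolateral membrane and pass them into urine through others at the brush border, where urate and carnitine are also taken back. SLC22 proteins are multispecific carriers that supply much of this traffic. Slc22a6 (OAT1) and Slc22a8 (OAT3) are the classical basolateral organic anion exchangers, which trade organic anions, many drugs among them, against dicarboxylates. Slc22a7 (OAT2) is another organic anion transporter. Slc22a12 (URAT1) is a brush border urate exchanger, Slc22a13 (OAT10) carries urate and nicotinate, and Slc22a19 (OAT5), described in rodents, carries sulfated steroids and other organic anions. Slc22a2 (OCT2) is the basolateral organic cation transporter, Slc22a4 (OCTN1) carries ergothioneine and organic cations, and Slc22a5 (OCTN2) recovers carnitine from the tubule fluid.

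Some of the genes are neighbours in the genome (GRCm38). Slc22a8 (chr19:8591254-8611835, plus strand) and Slc22a6 (chr19:8618039-8628299, plus strand) are 6.2 kb apart. Slc22a5 (chr11:53864542-53891660, minus strand) and Slc22a4 (chr11:53983123-54028090, minus strand) are 91.5 kb apart. Slc22a19 (chr19:7673061-7711310) and Slc22a12 (chr19:6535845-6543032) lie on the minus strand of chromosome 19, Slc22a2 (chr17:12584132-12628488, plus strand) and Slc22a7 (chr17:46432183-46438457, minus strand) on chromosome 17, and Slc22a13 (chr9:119192974-119209098, minus strand) on chromosome 9. Levels of some members are less certain because their reads can be shared. Of the 100-base windows of Slc22a13, 21.8% also occurred in the pseudogene Slc22a13b-ps. The share was 12.9% for Slc22a5 with Slc22a21. Exons of Slc22a12 overlap those of Nrxn2 on the opposite strand by 682 bases, which counting without strand cannot separate.

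RefSeq promoter windows (GRCm38.p6, 250 bases before to 50 after the start) were found for 8 members, with no entry for Slc22a7. The count of CG, the dinucleotide at which mammalian DNA is methylated, set the members apart. Slc22a5 and Slc22a4 had CG-rich windows, whereas those of Slc22a13 and Slc22a19 held no CG. The windows held 34 CG in Slc22a5, 29 in Slc22a4, 8 in Slc22a2, 6 in Slc22a12, 2 in Slc22a6, 1 in Slc22a8 and 0 in Slc22a13 and Slc22a19, against a median of 7 over all 32851 windows. The 100 bases before the start are shown for these extremes and for the neighbours Slc22a6 and Slc22a8, whose transcripts took different courses after IRI, with every CG in capitals. The Slc22a8 stretch lies within the bounds of the annotated gene, and the others lie upstream of their genes. Neither factor binding nor methylation was measured here.
Slc22a5, chr11:53891704-53891803, minus strand: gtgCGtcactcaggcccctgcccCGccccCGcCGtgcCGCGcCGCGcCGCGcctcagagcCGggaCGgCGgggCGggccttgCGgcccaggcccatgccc
Slc22a4, chr11:54028105-54028204, minus strand: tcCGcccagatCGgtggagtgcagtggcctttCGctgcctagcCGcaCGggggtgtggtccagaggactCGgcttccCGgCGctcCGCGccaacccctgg
Slc22a13, chr9:119209106-119209205, minus strand: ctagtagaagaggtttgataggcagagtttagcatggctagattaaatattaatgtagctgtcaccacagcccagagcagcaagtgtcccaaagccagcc
Slc22a19, chr19:7711311-7711410, minus strand: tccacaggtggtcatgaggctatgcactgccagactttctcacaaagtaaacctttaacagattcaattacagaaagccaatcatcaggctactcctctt
Slc22a6, chr19:8617896-8617995, plus strand: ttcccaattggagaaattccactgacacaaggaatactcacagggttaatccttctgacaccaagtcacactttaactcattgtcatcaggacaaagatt
Slc22a8, chr19:8593082-8593181, plus strand: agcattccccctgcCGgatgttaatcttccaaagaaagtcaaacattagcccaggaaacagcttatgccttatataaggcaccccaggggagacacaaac

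In sham kidney the members covered more than an order of magnitude in level. The mean FPKM in SHAM24h was 591 ± 50.3 for Slc22a12, 419 ± 45.7 for Slc22a6, 212 ± 16.1 for Slc22a2, 173 ± 5.72 for Slc22a8, 113 ± 17.1 for Slc22a7, 102 ± 5.41 for Slc22a5, 62.4 ± 2.90 for Slc22a13, 47.8 ± 3.03 for Slc22a19 and 35.8 ± 1.86 for Slc22a4 (SD, n = 3). Of the neighbours in this order, only the ranges of Slc22a7 and Slc22a5 overlapped. At IRI48h the order was Slc22a6, Slc22a12, Slc22a2, Slc22a5, Slc22a8, Slc22a4, Slc22a13, Slc22a7 and Slc22a19, with overlapping ranges between Slc22a6 and Slc22a12 and between neighbours among the last 3. The lowest value of any member, 0.227 FPKM of Slc22a7 in the third IRI72h library, corresponds to about 20 reads.

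**Figure D1:**
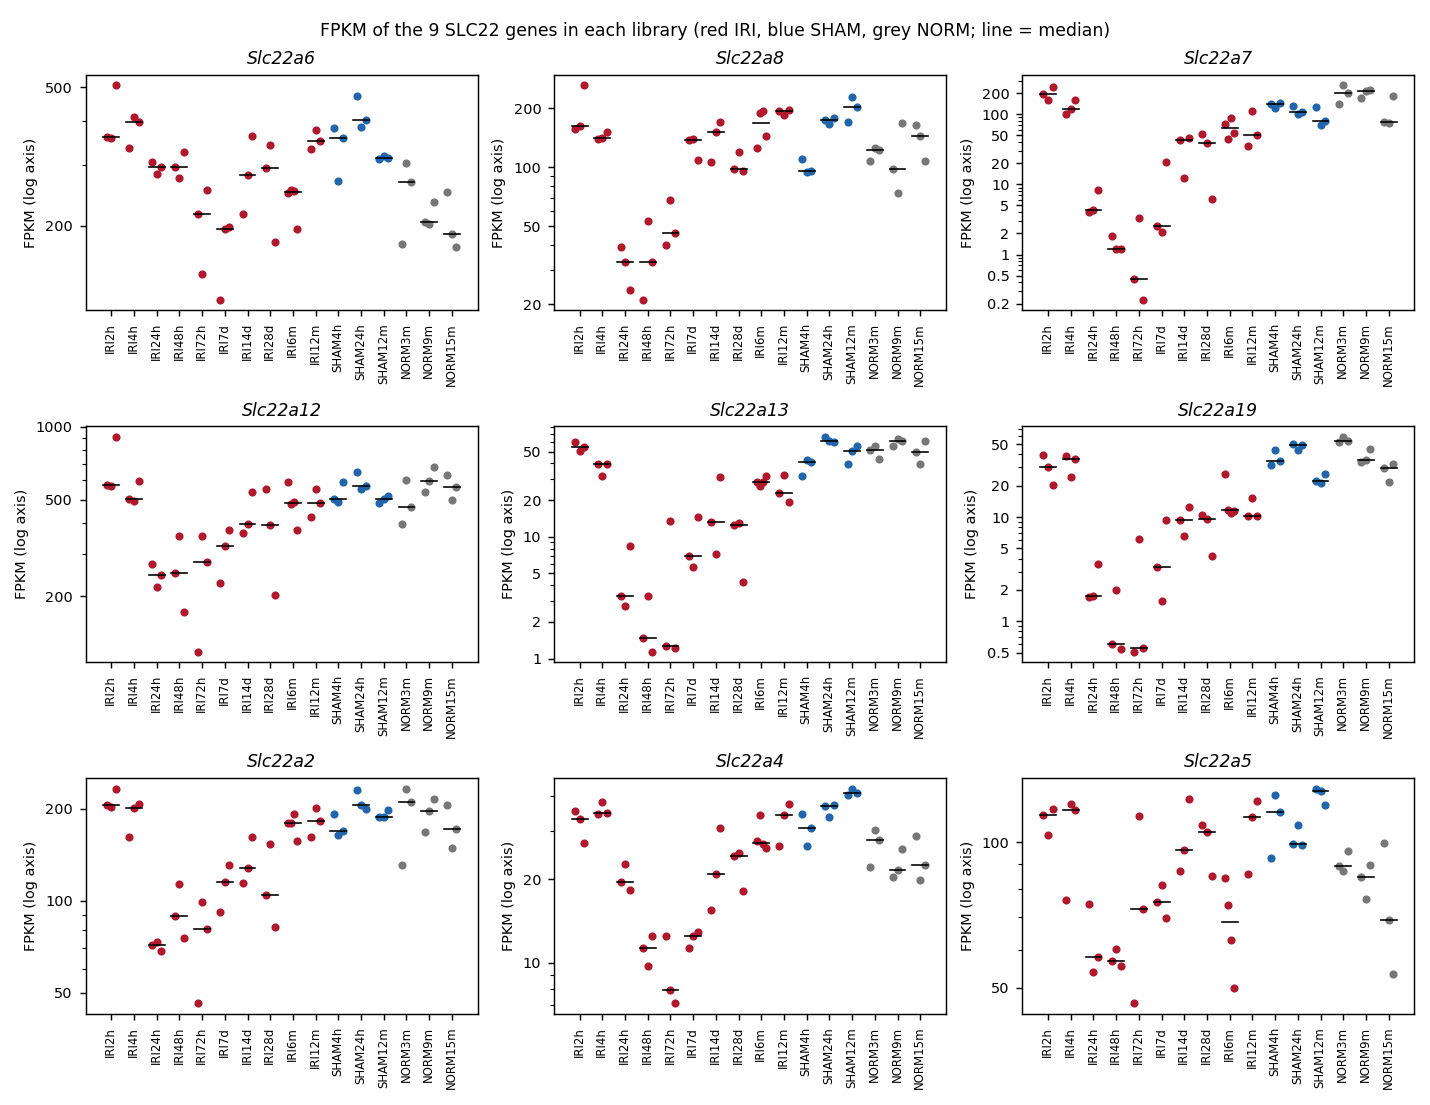
FPKM (log axis) of each of the 9 genes in every library of the 16 groups, with IRI groups in time order on the left, then the SHAM and NORM groups. Slc22a7, Slc22a13 and Slc22a19 drop deepest between IRI4h and IRI72h, whereas Slc22a6 stays between 123 and 507 FPKM in the IRI libraries.

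Estimated from the low values, the reads behind the scaling of a library numbered 38040400 to 52112000 from SHAM4h, SHAM24h and IRI2h to IRI28d. They numbered 69944000 to 88380000 in the 12-month sham and IRI groups, and 10575200 to 23606800 in the NORM groups and IRI6m. Comparisons that cross these sets also compare depths, and depth and group cannot be told apart in them. Some libraries stood apart from their group. The second IRI72h library was the highest of its group for 7 of 9 members and the third IRI7d library for 7 of 9, the third IRI14d library was the highest for all 9, and the third IRI28d library was the lowest for all 9. The second NORM3m library and the third NORM9m library were each the highest of their group for 8 of 9, and the first NORM3m library and the first IRI12m library the lowest for 7 of 9. The third SHAM12m library is sham by its title, description and surgery label, whereas its source label reads IRI. Leaving it out changed no count of called members at IRI6m or IRI12m against SHAM12m.

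The first comparisons address the first hours after clamping. IRI2h had no sham group of its own time, so SHAM4h served for it too. At IRI2h against SHAM4h, 1 of 9 members was higher and 0 were lower by limma at an adjusted p under 0.05, where 22.1% of all genes were higher and 17.9% lower. Slc22a8, the anion exchanger OAT3, had 157, 163 and 262 FPKM in IRI2h kidneys, against 110.4, 94.7 and 95.4 FPKM in SHAM4h kidneys. Every IRI2h library was above every SHAM4h library (log2 0.92 ± 0.26, adjusted p = 0.0047 by limma). That call was lost without the third IRI2h library (log2 0.68, adjusted p = 0.068) and with all 9 sham kidneys as the control (log2 0.32, adjusted p = 0.24). The other members had log2 differences of -0.34 to 0.52 at IRI2h without a call. At IRI4h against SHAM4h, limma called 0 members in either direction and 0 had an unadjusted p under 0.05, where 17.7% of all genes were higher and 10.5% lower. The members' median log2 difference at IRI4h was 0.02, beside 0.03 over all genes. Slc22a8 had 139, 141 and 151 FPKM in IRI4h kidneys, all above the SHAM4h libraries (log2 0.52). It passed the test when only these 2 groups were fitted (limma adjusted p = 0.0071).

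By 24 hours the loss of SLC22 transcripts was broad. At IRI24h against SHAM24h, 8 of 9 members fell and 0 rose, where 15.4% of all genes fell and 32.5% rose. The median log2 change of the members was -1.57, beside 0.18 over all genes. Between injured kidneys, 8 of 9 members were lower at IRI24h than at IRI4h, where 13.7% of all genes were lower, and the member outside that call was Slc22a6. The effect of IRI at 24 hours minus its effect at 4 hours, each against its own sham group, was negative and past the limma test for 7 members, where 15.1% of all genes were so called. Among the 7 it ranged from log2 -1.06 for Slc22a4 to -4.28 for Slc22a7. Slc22a5 (-0.62, limma adjusted p = 0.11) and Slc22a6 (-0.70, adjusted p = 0.07) missed the threshold. These differences also hold the change between the sham groups. For Slc22a8 that change was log2 0.79, and its direct change from IRI4h to IRI24h was log2 -2.19.

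The lower levels persisted on the following days. Against SHAM24h, 8 of 9 members were lower at IRI48h, where 23.1% of all genes were lower, and 8 of 9 at IRI72h, where 23.1% were lower. The member outside the call was Slc22a6 at IRI24h and IRI48h, and Slc22a5 at IRI72h. The members' median log2 change was -1.68 at IRI48h and -1.78 at IRI72h, beside 0.02 and 0.01 over all genes. The comparisons from IRI24h to IRI28d share the SHAM24h libraries and are not independent of each other.

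**Figure D2:**
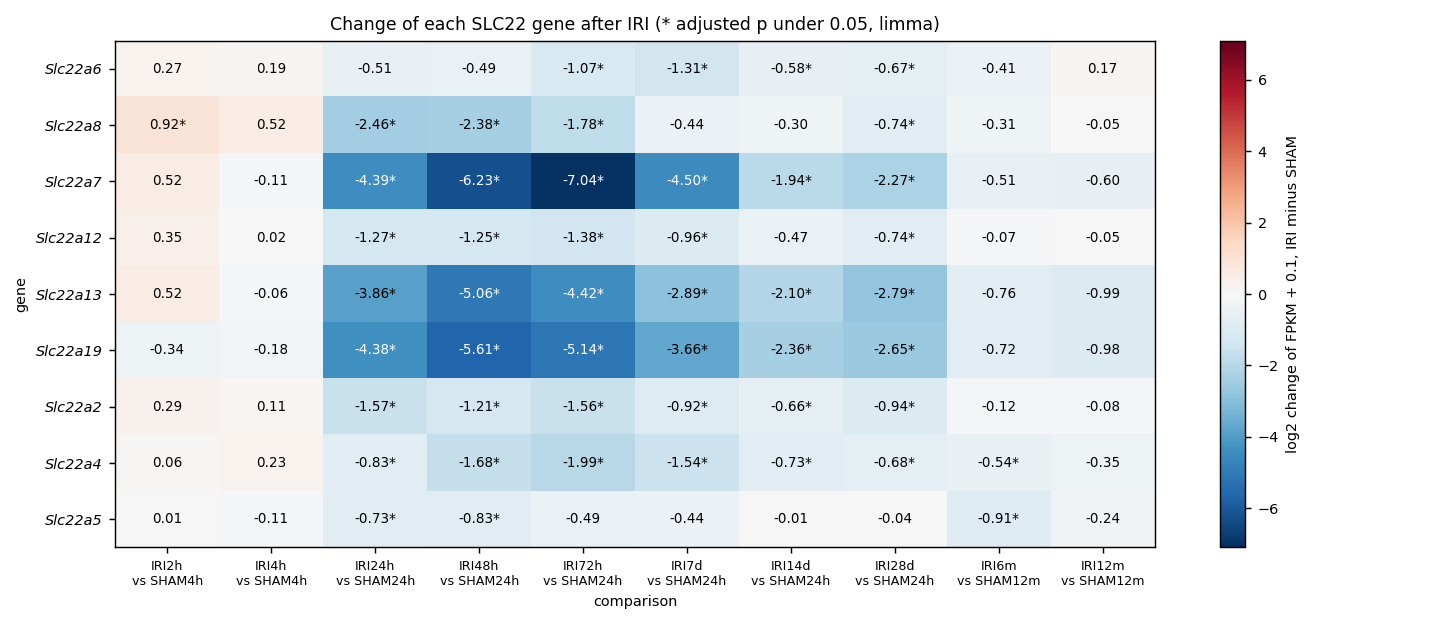
Log2 change of FPKM + 0.1 for each gene in each IRI group minus its sham group, with the 10 comparisons in time order and an asterisk at a limma adjusted p under 0.05. The deepest value is -7.04 for Slc22a7 at IRI72h, while Slc22a5 does not go below -0.91.

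Slc22a7 (OAT2) fell furthest. Its level was 4.07, 4.25 and 8.33 FPKM in IRI24h kidneys, 1.83, 1.22 and 1.21 FPKM in IRI48h kidneys and 0.448, 3.36 and 0.227 FPKM in IRI72h kidneys, against 133, 100.3 and 107 FPKM in SHAM24h kidneys. No library of these IRI groups overlapped the SHAM24h libraries. By limma the log2 change was -4.39 ± 0.69 at IRI24h (SE, adjusted p = 2.1e-06), -6.23 ± 0.69 at IRI48h (adjusted p = 2.6e-09) and -7.04 ± 0.69 at IRI72h (adjusted p = 3.2e-10). The IRI72h mean was 1.19% of the SHAM24h mean. Slc22a7 was also lower at IRI48h than at IRI24h (log2 -1.84, limma adjusted p = 0.046), a call that was lost when any of those 6 libraries was left out.

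Slc22a19 (OAT5) and Slc22a13 (OAT10) followed a like course from lower starting levels. Slc22a19 had 0.606, 2.00 and 0.539 FPKM in IRI48h kidneys, against 49.96, 44.4 and 49.2 FPKM in SHAM24h kidneys. Its log2 change was -4.38 ± 0.55 at IRI24h, -5.61 ± 0.55 at IRI48h (limma adjusted p = 2.3e-10) and -5.14 ± 0.55 at IRI72h. Slc22a13 had 1.47, 3.27 and 1.14 FPKM in IRI48h kidneys, against 65.7, 61.2 and 60.3 FPKM in SHAM24h kidneys. Its log2 change was -3.86 ± 0.54 at IRI24h, -5.06 ± 0.54 at IRI48h (limma adjusted p = 1.1e-09) and -4.42 ± 0.54 at IRI72h. Neither gene overlapped sham at IRI48h.

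At IRI72h the second library stood above the others for these genes, with Slc22a13 at 1.27, 13.4 and 1.22 FPKM and Slc22a19 at 0.512, 6.18 and 0.555 FPKM in the 3 libraries. Without it the log2 changes were -8.05 for Slc22a7, -5.53 for Slc22a13 and -6.24 for Slc22a19, and Slc22a5 passed the test (log2 -0.81, limma adjusted p = 0.002). The 12 proximal tubule markers summed to 17430 FPKM in that library, against 15916 and 10187 FPKM in the other IRI72h libraries. Such a sum is weighted towards its most abundant genes. The part of cell composition in these values was not tested.

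The classical anion exchangers, neighbours on chromosome 19, took different courses. Slc22a8 (OAT3) had 39.3, 33.1 and 23.7 FPKM in IRI24h kidneys and 21.1, 53.0 and 32.7 FPKM in IRI48h kidneys, against 174, 167 and 178 FPKM in SHAM24h kidneys. Its log2 change was -2.46 ± 0.26 at IRI24h (limma adjusted p = 9.1e-10), -2.38 ± 0.26 at IRI48h and -1.78 ± 0.26 at IRI72h. Slc22a6 (OAT1) had 306, 282 and 295 FPKM in IRI24h kidneys and 295, 274 and 327 FPKM in IRI48h kidneys, against 471, 385 and 402 FPKM in SHAM24h kidneys. Every library of both IRI groups lay below every SHAM24h library for both genes. For Slc22a6 the log2 difference of -0.51 ± 0.22 at IRI24h (limma adjusted p = 0.051) and of -0.49 ± 0.22 at IRI48h (adjusted p = 0.057) missed the threshold. Both passed it when only the 2 groups compared were fitted (adjusted p = 0.0012 and 0.0081). Their direction turned with kidneys without surgery as the control, where Slc22a6 had 177, 304 and 267 FPKM in NORM3m kidneys (log2 0.27 at IRI24h, adjusted p = 0.29, and 0.29 at IRI48h, adjusted p = 0.26). Slc22a6 was lowest at IRI7d, with 123, 196 and 199 FPKM, when the log2 change was -1.31 ± 0.22 (limma adjusted p = 4.9e-06), and it was also called at IRI72h (log2 -1.07). With kidneys without surgery as the control the IRI72h call was lost (log2 -0.28, adjusted p = 0.28).

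The ratio of these neighbours within a library needs no scaling between libraries. Slc22a6 over Slc22a8 was 7.78 to 12.4 at IRI24h, 5.18 to 13.9 at IRI48h and 2.12 to 5.46 at IRI72h, against 2.25 to 2.70 in SHAM24h. By IRI7d it was 0.890 to 1.83, below the SHAM24h range, and at IRI14d 1.84 to 2.14. The ratio also differed among control groups, at 2.85 to 3.75 in SHAM4h, 1.39 to 1.81 in SHAM12m and 1.31 to 1.60 in NORM15m. These ratios were not tested.

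The neighbours on chromosome 11 also diverged, but later. Slc22a4 (OCTN1) had 11.3, 9.75 and 12.5 FPKM in IRI48h kidneys and 12.5, 7.97 and 7.11 FPKM in IRI72h kidneys, against 36.7, 33.6 and 37.0 FPKM in SHAM24h kidneys, without overlap. Its log2 change was -0.83 ± 0.19 at IRI24h, -1.68 ± 0.19 at IRI48h, -1.99 ± 0.19 at IRI72h (limma adjusted p = 1.3e-10) and -1.54 ± 0.19 at IRI7d. The IRI24h call was lost with kidneys without surgery as the control (log2 -0.40, adjusted p = 0.067). Slc22a4 and Slc22a7 were the 2 members called lower at IRI48h than at IRI24h, where 17.1% of all genes were lower (Slc22a4, log2 -0.85, limma adjusted p = 0.00094).

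Slc22a5, the carnitine transporter OCTN2, kept the largest share of its sham level at its lowest group mean. It had 56.8, 60.2 and 55.4 FPKM in IRI48h kidneys, against 99.2, 108 and 98.7 FPKM in SHAM24h kidneys, and these groups did not overlap. By limma its log2 difference was -0.73 ± 0.22 at IRI24h (adjusted p = 0.0055), -0.83 ± 0.22 at IRI48h (adjusted p = 0.0017), -0.49 ± 0.22 at IRI72h (adjusted p = 0.061) and -0.44 ± 0.22 at IRI7d (adjusted p = 0.093). Within libraries, Slc22a5 over Slc22a4 was 2.37 to 3.81 at IRI24h, 4.43 to 6.18 at IRI48h, 3.71 to 14.3 at IRI72h and 5.41 to 6.67 at IRI7d, against 2.67 to 3.22 in SHAM24h. SHAM4h, at 2.70 to 4.73, overlapped the IRI48h and IRI72h ranges.

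**Figure D3:**
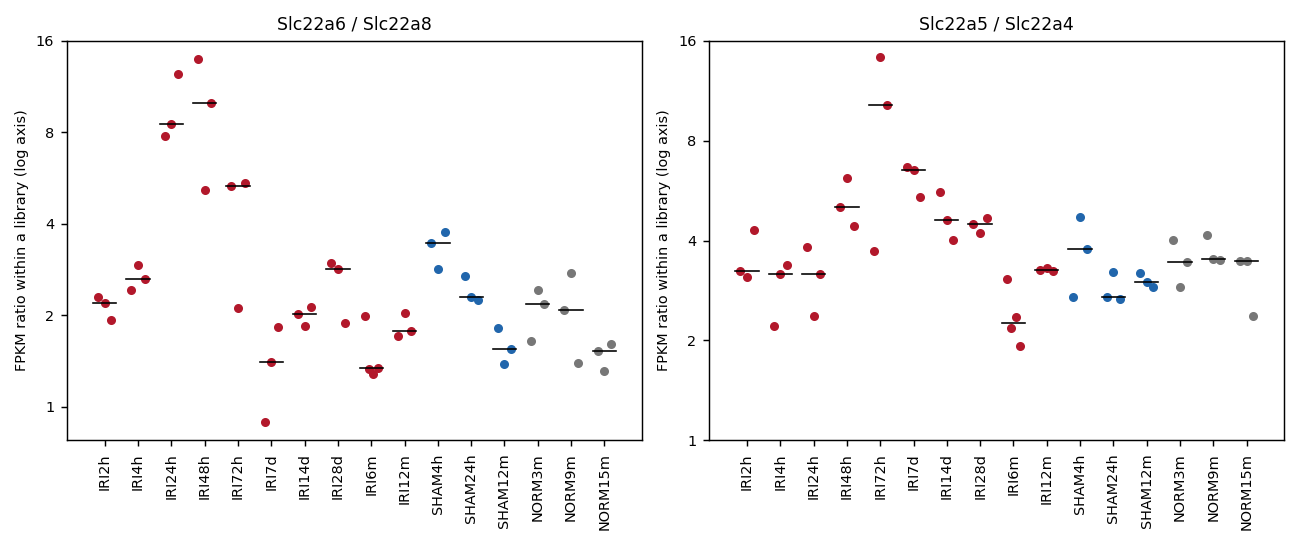
Ratio of FPKM within each library (log axis) by group, for Slc22a6 over Slc22a8 and for Slc22a5 over Slc22a4. The Slc22a6 over Slc22a8 ratio is highest at IRI24h (7.78 to 12.4) and IRI48h (5.18 to 13.9), and the Slc22a5 over Slc22a4 ratio at IRI72h (3.71 to 14.3).

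Slc22a12 (URAT1) and Slc22a2 (OCT2) fell from high levels. Slc22a12 had 273, 218 and 244 FPKM in IRI24h kidneys and 249, 355 and 172 FPKM in IRI48h kidneys, against 648, 554 and 569.8 FPKM in SHAM24h kidneys. Its log2 change was -1.27 ± 0.29 at IRI24h, -1.25 ± 0.29 at IRI48h and -1.38 ± 0.29 at IRI72h. Slc22a2 had 71.8, 73.2 and 68.5 FPKM in IRI24h kidneys, against 229.8, 205 and 199.6 FPKM in SHAM24h kidneys. Its log2 change was -1.57 ± 0.21 at IRI24h, -1.21 ± 0.21 at IRI48h and -1.56 ± 0.21 at IRI72h. No library of these 3 IRI groups overlapped SHAM24h for either gene.

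The time of the lowest group mean between IRI24h and IRI28d is given as a description, since it was not tested. It was IRI24h for Slc22a2 (33.6% of the SHAM24h mean), Slc22a8 (18.5%) and Slc22a12 (41.5%). It was IRI48h for Slc22a5 (56.3%), Slc22a13 (3.14%) and Slc22a19 (2.19%), IRI72h for Slc22a4 (25.7%) and Slc22a7 (1.19%), and IRI7d for Slc22a6 (41.1%). At IRI72h against IRI48h limma called 0 members, although 2 had an unadjusted p under 0.05, where 1.15% of all genes were higher and 1.74% lower. At IRI48h against IRI24h the members other than Slc22a4 and Slc22a7 had no call, with adjusted p = 0.97 for Slc22a12 and 0.21 for Slc22a2 by limma. The group means of Slc22a12 were 245 ± 27.3, 259 ± 91.5 and 250.2 ± 120.3 FPKM at IRI24h, IRI48h and IRI72h (SD, n = 3), a difference within their spread.

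**Figure D4:**
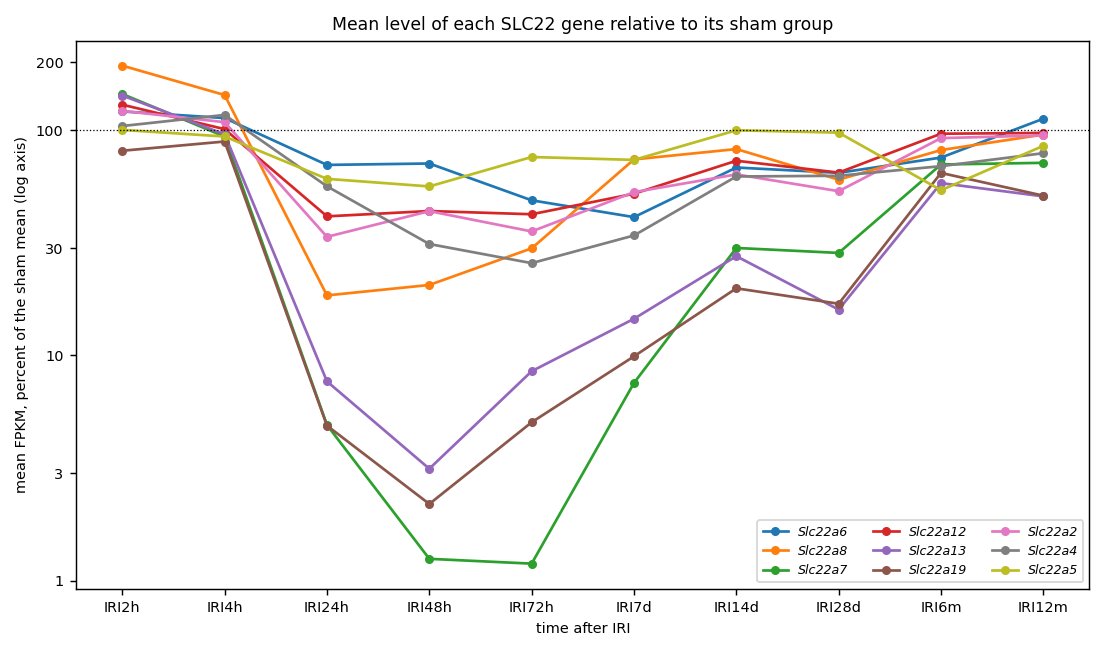
Mean FPKM of each gene as a percent of its sham mean (log axis) at the 10 times after IRI, against SHAM4h for IRI2h and IRI4h, SHAM24h for IRI24h to IRI28d and SHAM12m for IRI6m and IRI12m. Slc22a7, Slc22a13 and Slc22a19 lie between 1.19 and 8.51 percent from IRI24h to IRI72h.

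The next comparisons follow recovery. At IRI7d against SHAM24h, 7 of 9 members were lower, where 14.5% of all genes were lower, with Slc22a5 and Slc22a8 outside the call. For both genes every IRI7d library still lay below every SHAM24h library. Both passed the test when only these 2 groups were fitted (log2 -0.44 each, limma adjusted p = 0.0014 and 0.0062). Without the first IRI7d library Slc22a12 was also outside the call (limma adjusted p = 0.054). Against IRI72h, 5 members were higher at IRI7d, Slc22a2, Slc22a7, Slc22a8, Slc22a13 and Slc22a19, where 22.0% of all genes were higher. Slc22a8 had 138, 139 and 109 FPKM in IRI7d kidneys, against 40.4, 68.6 and 46.5 FPKM in IRI72h kidneys (log2 1.34, limma adjusted p = 0.00028). The count of 5 was 3 without the first IRI72h library, 2 without the third IRI72h library, 3 without the first IRI7d library and 1 without the third IRI7d library.

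Slc22a7 remained low at IRI7d, with 2.55, 2.09 and 21.0 FPKM in the 3 libraries. The third of these libraries held 26201 FPKM summed over the proximal tubule markers, against 7056 and 7814 FPKM in the other IRI7d libraries. Without it the log2 change of Slc22a7 against SHAM24h was -5.55, in place of -4.50. The part of composition was not tested.

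At IRI14d against SHAM24h, 6 of 9 members were lower, where 18.9% of all genes were lower, and Slc22a5, Slc22a8 and Slc22a12 were outside the call. Slc22a7 had 43.3, 12.5 and 46.2 FPKM in IRI14d kidneys, against 133, 100.3 and 107 FPKM in SHAM24h kidneys (log2 -1.94, limma adjusted p = 0.018). The count was 4 without the first IRI14d library and 4 without the first SHAM24h library. With kidneys without surgery as the control it was 4, where 2843 of 14895 genes were lower. Slc22a4 then lost the call (log2 -0.30, limma adjusted p = 0.16) and Slc22a6 turned in direction (log2 0.20, adjusted p = 0.43). The Slc22a7 call was lost without the second IRI14d library (adjusted p = 0.14). Against IRI7d, 3 members were higher at IRI14d, Slc22a4, Slc22a6 and Slc22a7, where 8.35% of all genes were higher. That count was 0 without the third IRI14d library and 1 without the first IRI7d library.

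At IRI28d against SHAM24h, 8 of 9 members were lower, where 9.86% of all genes were lower. Slc22a5, outside the call, had 109, 105 and 85.0 FPKM in IRI28d kidneys, against 99.2, 108 and 98.7 FPKM in SHAM24h kidneys (log2 -0.04 ± 0.22), and these groups overlapped. The count of 8 fell to between 3 and 7 when any single library of IRI28d or SHAM24h was left out. Without the third IRI28d library limma called 3 members, Slc22a2 (log2 -0.73), Slc22a13 (-2.27) and Slc22a19 (-2.24), and without the first SHAM24h library the count was 5. With kidneys without surgery as the control it was 4, where 1308 of 14895 genes were lower. Slc22a6 then turned in direction (log2 0.11, limma adjusted p = 0.72). In the third IRI28d library Slc22a7 was 6.14 FPKM, against 51.9 and 38.8 FPKM in the other IRI28d libraries. Its summed proximal tubule markers were 17970 FPKM, against 51923 and 36662 FPKM, and the part of composition was not tested.

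Slc22a13 and Slc22a19 were the members farthest below sham at IRI28d. Slc22a13 had 12.6, 13.1 and 4.28 FPKM in IRI28d kidneys, against 65.7, 61.2 and 60.3 FPKM in SHAM24h kidneys (log2 -2.79 ± 0.54). Slc22a19 had 10.6, 9.58 and 4.21 FPKM in IRI28d kidneys, against 49.96, 44.4 and 49.2 FPKM in SHAM24h kidneys (log2 -2.65 ± 0.55). Compared with IRI48h, 6 members were higher at IRI28d, Slc22a4, Slc22a5, Slc22a7, Slc22a8, Slc22a13 and Slc22a19, where 23.0% of all genes were higher. Leaving out single libraries of those groups gave 6 or 7. At IRI28d against IRI14d limma called 0 members, and 0 had an unadjusted p under 0.05, where 11.4% of all genes were higher and 6.77% lower.

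The late comparisons ask whether a difference lasted. At IRI6m against SHAM12m, 2 of 9 members were lower, where 20.9% of all genes were lower. Slc22a5 had 84.4, 74.2, 62.8 and 49.9 FPKM in IRI6m kidneys, against 129, 128 and 119 FPKM in SHAM12m kidneys (log2 -0.91 ± 0.20, adjusted p = 0.00036 by limma). Slc22a4 had 27.5, 34.1, 26.7 and 26.0 FPKM in IRI6m kidneys, against 40.3, 42.4 and 41.0 FPKM in SHAM12m kidneys (log2 -0.54 ± 0.17, adjusted p = 0.01 by limma). The groups did not overlap for either gene, but they differ in depth set and in time after surgery. Slc22a6 and Slc22a13 had no call, yet their groups did not overlap either. Both passed the test when only these 2 groups were fitted (log2 -0.41 and -0.76, limma adjusted p = 0.02 and 0.0038). Against NORM9m kidneys, of the same depth set as IRI6m, limma called 0 members (4 had an unadjusted p under 0.05), where 6.25% of all genes were higher and 2.07% lower. Slc22a4 then lay on the other side, with 20.4, 21.7 and 25.7 FPKM in NORM9m kidneys, all below the IRI6m libraries (log2 0.34, limma adjusted p = 0.26). The direction of Slc22a6 turned too, without a call (log2 0.11 to 0.23 on leaving out single libraries). Larger differences without a call were those of Slc22a7, Slc22a19 and Slc22a13. Slc22a7 had 71.7, 44.0, 87.8 and 53.2 FPKM in IRI6m kidneys, against 172, 215 and 219.8 FPKM in NORM9m kidneys (log2 -1.70 ± 0.64, adjusted p = 0.1 by limma). Slc22a19 had 25.8, 11.7, 10.9 and 11.5 FPKM in IRI6m kidneys, against 33.5, 35.4 and 45.3 FPKM in NORM9m kidneys (log2 -1.43 ± 0.52, adjusted p = 0.084). Slc22a13 had 28.0, 26.0, 27.9 and 31.3 FPKM in IRI6m kidneys, against 55.9, 63.7 and 60.9 FPKM in NORM9m kidneys (log2 -1.09 ± 0.50, adjusted p = 0.2). The groups did not overlap for these 3 genes. Slc22a7 and Slc22a13, but not Slc22a19, passed the test when only these 2 groups were fitted (limma adjusted p = 0.02 and 0.003).

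At IRI12m against SHAM12m, limma called 0 members and 0 had an unadjusted p under 0.05, where 8.44% of all genes were higher and 0.369% lower. Slc22a13 had 22.7, 32.2 and 19.2 FPKM in IRI12m kidneys, against 39.2, 50.5 and 56.0 FPKM in SHAM12m kidneys (log2 -0.99 ± 0.54, adjusted p = 0.34 by limma). Slc22a19 had 10.2, 15.1 and 10.3 FPKM in IRI12m kidneys, against 22.4, 21.2 and 25.9 FPKM in SHAM12m kidneys (log2 -0.98 ± 0.55, adjusted p = 0.38 by limma). The groups did not overlap for either gene, and both passed the test when only these 2 groups were fitted (limma adjusted p = 0.033 and 0.019). The effect at IRI12m minus that at IRI28d was called by limma for 0 members (4 had an unadjusted p under 0.05), where 1.86% of all genes were called positive and 1.87% negative.

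Against NORM15m kidneys, 2 members were higher and 0 lower at IRI12m, where 20.9% of all genes were higher and 10.5% lower. Slc22a6 had 332, 377 and 350.0 FPKM in IRI12m kidneys, against 251, 189 and 174 FPKM in NORM15m kidneys (log2 0.80 ± 0.22, adjusted p = 0.0045 by limma), without overlap. Slc22a5 had 85.8, 113 and 122 FPKM in IRI12m kidneys, against 99.7, 69.0 and 53.5 FPKM in NORM15m kidneys (log2 0.56 ± 0.22, adjusted p = 0.046 by limma). Slc22a6 and Slc22a5 were also higher in SHAM12m than in NORM15m kidneys (log2 0.63 and 0.80, limma adjusted p = 0.021 and 0.0041). Neither was called at IRI12m against SHAM12m. The Slc22a5 call at IRI12m against NORM15m was lost without replicate 2 or 3 of either group, and these groups differ in depth set. Larger differences without a call went the other way. Slc22a13 had 22.7, 32.2 and 19.2 FPKM in IRI12m kidneys, against 49.2, 39.4 and 60.6 FPKM in NORM15m kidneys (log2 -1.02). Slc22a19 had 10.2 to 15.1 FPKM, against 21.8 to 32.4 FPKM (log2 -1.24). Both passed the test when only these 2 groups were fitted (limma adjusted p = 0.018 and 0.0076).

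Members also differed among control kidneys. In SHAM24h against SHAM4h, 1 member was higher, where 26.5% of all genes were higher. This was Slc22a8, with 174, 167 and 178 FPKM in SHAM24h kidneys, against 110.4, 94.7 and 95.4 FPKM in SHAM4h kidneys (log2 0.79, limma adjusted p = 0.016, and 0.051 without the second SHAM4h library). In SHAM24h against NORM3m, 1 member was higher, where 16.0% of all genes were higher. This was Slc22a6, with 471, 385 and 402 FPKM in SHAM24h kidneys, against 177, 304 and 267 FPKM in NORM3m kidneys (log2 0.78, limma adjusted p = 0.008, and 0.089 without the first NORM3m library). In SHAM12m against NORM15m, 3 members were higher, Slc22a4, Slc22a5 and Slc22a6 (log2 0.81, 0.80 and 0.63), where 18.2% of all genes were higher, and the count was 1 without the third NORM15m library. The comparisons of sham with no surgery also cross depth sets.

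Between ages without surgery limma called 0 members at NORM9m or at NORM15m against NORM3m, and 0 had an unadjusted p under 0.05 in either. Of all genes 8.80% were higher and 4.65% lower at NORM9m, and 5.47% were higher and 3.44% lower at NORM15m. Slc22a19 had 29.8, 21.8 and 32.4 FPKM in NORM15m kidneys, against 52.7, 58.4 and 53.9 FPKM in NORM3m kidneys (log2 -0.99 ± 0.55, adjusted p = 0.24 by limma), without overlap. Slc22a7 had 76.6, 75.9 and 182 FPKM in NORM15m kidneys, against 137, 258 and 197 FPKM in NORM3m kidneys, and these groups overlapped.

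Across the 16 group means of log2(FPKM + 0.1), which share the injury course and the scaling of the table, members resembled each other to different degrees. Pearson's r was highest between Slc22a13 and Slc22a19 (0.98), and for Slc22a6 it ranged from 0.23 with Slc22a8 to 0.65 with Slc22a4. The 3 protein-coding genes most like Slc22a2 were Ggt1 (0.97), a brush border enzyme of glutathione breakdown, Slc22a12 (0.97) and Aifm3 (0.97). Those most like Slc22a12 were Ggt1 (0.98), Acsf3 (0.97) and Slc22a2 (0.97). Slc22a7 was nearest to Slc22a19 (0.97), Mep1b (0.97), a brush border protease subunit, and Slc22a28 (0.97). Slc22a13 was nearest to Slc22a19 (0.98), Slc9a8 (0.98) and Mettl7a2 (0.98), and Slc22a19 to Gm853 (0.98), Cyp51 (0.98), a sterol synthesis enzyme, and Slc22a13 (0.98). Slc22a8 was nearest to Cml1 (0.93), Miox (0.93), the proximal tubule inositol oxygenase, and Zmynd10 (0.93). Slc22a4 was nearest to Pzp (0.96), Fcamr (0.96) and Mlx (0.95), and Slc22a5 to Tmem8 (0.95), Acad12 (0.93) and Fads2 (0.93). Slc22a6 had the lowest correlations with its nearest genes, Dgat2 (0.89), an enzyme of triglyceride synthesis, Cnnm1 (0.88) and Ppargc1b (0.87).

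Most other genes of the family were also lower at IRI48h against SHAM24h. Of 15 further SLC22 genes 10 were tested, of which 9 were lower and 1 higher, where 23.1% of all genes were lower and 28.5% higher, with a median log2 change of -1.63, beside 0.02 over all genes. The largest changes were those of Slc22a26 (log2 -6.25), Slc22a28 (-3.19), Slc22a30 (-3.15) and Slc22a22 (-2.64). Slc22a26 had 0.0471, 0.201 and 0.0428 FPKM in IRI48h kidneys, against 14.1, 13.8 and 14.0 FPKM in SHAM24h kidneys. Slc22a15, named after its values were seen, was the gene that rose, with 1.47, 1.054 and 1.52 FPKM in IRI48h kidneys, against 0.620, 0.524 and 0.504 FPKM in SHAM24h kidneys (log2 1.15 ± 0.25, adjusted p = 0.00026 by limma).

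Transporters that work beside SLC22 proteins changed in part. Of 21 tested efflux, exchange and scaffold genes, 9 were lower and 1 higher at IRI48h, beside those shares of 23.1% and 28.5% of all genes, with a median log2 change of -0.66. The largest changes were those of Slco4c1 (log2 -4.63), a basolateral organic anion carrier, Slco1a1 (-3.83), Slc5a8 (-2.16), a sodium-coupled monocarboxylate transporter, and Slco1a4 (-1.96). Abcc4, an ATP-driven efflux pump for organic anions that was named after its values were seen, rose (log2 0.79 ± 0.23, adjusted p = 0.0051 by limma).

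Of 6 transcription regulators tied to SLC22 genes, 2 were lower and 2 higher at IRI48h, beside 23.1% lower and 28.5% higher over all genes, with a median log2 change of 0.09. Hnf4a, a nuclear receptor of proximal tubule identity, had 129, 123 and 129.9 FPKM in IRI48h kidneys, against 216, 212 and 224 FPKM in SHAM24h kidneys (log2 -0.77). Cebpb, a factor of acute response genes, changed by log2 1.86, Nr1i2, a xenobiotic-sensing nuclear receptor, by 0.58, and Esrra, a nuclear receptor of mitochondrial genes, by -0.51. At IRI24h the log2 change of Hnf4a was -0.30 by limma. A link between the regulators and the members was not tested.

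Proximal tubule markers were also lower at IRI48h against SHAM24h. Of 12, 11 were lower and 1 higher, where 23.1% of all genes were lower and 28.5% higher, with a median log2 change of -1.41. The largest changes were those of Slc7a13 (-4.85), an amino acid transporter, the endocytic receptor genes Lrp2 (-2.29) and Cubn (-1.71), and Pck1 (1.96), a gluconeogenic enzyme. Their summed level was 18310 to 21018 FPKM in IRI48h kidneys and 41435 to 43701 FPKM in SHAM24h kidneys. At other times the sums of markers and members went apart. A sum is weighted towards its most abundant genes, so it need not follow most of the markers. The markers summed to 43516 to 50972 FPKM in IRI2h kidneys and 40233 to 48053 FPKM in IRI4h kidneys, against 66400 to 74069 FPKM in SHAM4h kidneys. The 9 members summed to 1667 to 2363 FPKM in IRI2h kidneys and 1432 to 1741 FPKM in IRI4h kidneys, against 1375 to 1578 FPKM in SHAM4h kidneys. In IRI6m kidneys the markers summed to 68736 to 98463 FPKM, against 44938 to 52285 FPKM in SHAM12m kidneys, and the members to 1044 to 1385 FPKM, against 1509 to 1552 FPKM in SHAM12m kidneys. By limma 6 of the 12 markers were lower and 0 higher at IRI6m against SHAM12m (median log2 -0.46), and these groups differ in depth set. Of all genes 20.9% were lower and 30.4% higher there. At IRI48h all 7 injured tubule markers rose, Krt20 (log2 8.84), Lcn2 (8.07), Havcr1 (8.04) and Sox9 (4.27) by most, and their sum was 1205 to 2091 FPKM in IRI48h kidneys and 88.8 to 100.2 FPKM in SHAM24h kidneys. All 4 stromal and all 4 endothelial markers rose, and 2 of 6 leukocyte markers rose and 1 fell, beside 28.5% higher and 23.1% lower over all genes. At IRI12m against SHAM12m, 6 of 7 injured tubule markers were higher, where 8.44% of all genes were higher. The 12 proximal tubule markers had log2 differences of -0.76 to 0.07 without a call. The part of these shifts in the members' values was not tested.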

How the data were processed

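Whole-kidney RNA from 49 mouse kidneys was sequenced as paired 100-cycle reads. The authors aligned the reads with STAR 2.5.0b to mm10 (annotation GRCm38.p3), counted them per gene and deposited FPKM values. How counts became FPKM is not given in the sources used here. Low values lay near whole multiples of 1 read (72.7 to 82.3% within 0.1 of a whole read), from which depth was estimated, and counts were not tested.

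Log2-transformed values, with 0.1 FPKM added, were fitted by limma 3.58.1 (R 4.3.3, trend and robust) for all 16 groups together, over the 14895 genes with at least 1 FPKM in at least 3 libraries. Within each comparison a Benjamini-Hochberg adjusted p under 0.05 made a call. The pseudocount understates changes of low genes. The code was tested on simulated data. Members, lists and comparisons were chosen with earlier results of these data known. The genes named were all members, up to 4 per list with the largest called change at IRI48h, and the 3 protein-coding genes most like each member, with exceptions stated. Some genes of the lists are not reported here and are left out of the lists' counts and medians. Positions and shared windows came from GENCODE M21, and promoters from RefSeq (GRCm38.p6). Python 3.11.15, numpy 2.4.6, pandas 2.3.3 and matplotlib 3.10.9 were used for summaries and plots. Alternatives covered the filter, the pseudocount, quantile normalization, limma without trend and robust, other controls, single libraries left out, a block for the replicate number and fits restricted to the groups compared.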

Additional observations from a re-analysis of the deposited data

Results flagged for a closer look

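In IRI6m, the only group of 4, single libraries lay far from the other 3. For Slc22a6 the gap of the lowest library to its nearest neighbour was 0.936 of the group's log2 range (249, 253, 251 and 195 FPKM), and for Slc22a19 the gap of the highest was 0.919 (25.8, 11.7, 10.9 and 11.5 FPKM). The cutoff applied to these gaps is passed by chance in about 1 in 20 groups.

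The effect of IRI differed between 24 and 4 hours, each against its own sham group, for 7 members by a limma test of the difference itself. It was log2 -1.68 for Slc22a2, -1.06 for Slc22a4, -4.28 for Slc22a7, -2.98 for Slc22a8, -1.29 for Slc22a12, -3.80 for Slc22a13 and -4.20 for Slc22a19. The Slc22a8 value includes its higher level in SHAM24h than in SHAM4h (log2 0.79). Leaving out single libraries gave 7 or 8 such members.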

How the results depend on the processing

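Of 252 member results, 86 were called, and 58 of these kept direction and call in every alternative run for them. Over 2718 alternative values, 2593 stayed on their side of the threshold, 78 lost the call, 43 gained one and 4 turned in direction and were called before or after. Among the 2593, 100 changed sign without a call either way, 68 of them on leaving out a single library, so the direction of uncalled results close to 0 is not settled. For comparisons between IRI times, among controls and between IRI effects, only quantile normalization and leaving out single libraries were run, and both were chosen after seeing the data.

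With kidneys without surgery as the control, Slc22a6 reversed at IRI14d (log2 0.20) and IRI28d (0.11), Slc22a4 at IRI6m (0.34) and Slc22a5 at IRI12m against SHAM12m (0.56). A further 12 results without a call changed sign with it, Slc22a6 at IRI24h (0.27) and IRI48h (0.29) among them. With that control, 2 members were higher at IRI2h (1 in the report), 1 higher at IRI4h (0) and 2 higher at IRI12m (0). Of 14895 genes, 2606, 2486 and 3111 were so called. The same control gave 4 members lower at IRI28d (8) and 0 lower at IRI6m (2). Over all genes 1308 were lower at IRI28d and 2.07% were lower at IRI6m. With all 9 sham kidneys, 0 were higher at IRI2h, 4 lower at IRI6m and 1 lower at IRI12m, where 2078, 3592 and 290 of all genes were so called. With only the 2 groups compared, 1 was higher at IRI4h, 4 were lower at IRI6m, 2 lower at IRI12m against SHAM12m, 2 lower at IRI6m against NORM9m and 2 lower at IRI12m against NORM15m. Over all genes these calls numbered 2595, 3041, 571, 79 and 1791. A pseudocount of 1 FPKM gave 2 lower at IRI6m against NORM9m and 1 lower at IRI12m against NORM15m, where 307 and 1640 of all genes were lower. The count higher at IRI12m against NORM15m was 1 with no filter and 1 in limma without trend and robust. Over all genes it was 2619 of 43309 and 3111 of 14895. Quantile normalization gave 1 lower at IRI48h against IRI24h and 3 higher at IRI7d against IRI72h, for which calls over all genes were not counted. The cause of these shifts was not tested.

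Leaving out single libraries gave 0 to 1 members higher at IRI2h, 3 to 7 lower at IRI28d, 0 to 1 lower and 0 to 1 higher at IRI6m against NORM9m, and 1 to 3 higher at IRI12m against NORM15m. It gave 1 to 3 lower at IRI48h against IRI24h, 1 to 5 higher at IRI7d against IRI72h and 0 to 4 higher at IRI14d against IRI7d. It gave 0 to 1 higher in SHAM24h against SHAM4h, 0 to 1 in SHAM24h against NORM3m, 1 to 3 in SHAM12m against NORM15m and 0 to 1 for the effect at IRI12m minus that at IRI28d. Calls over all genes were not counted in these fits.

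Same-numbered libraries did not deviate together (correlations of -0.301 to 0.174), so the numbers do not pair the samples, and a replicate block changed no call in 108 member results.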

Other observations

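Markers of other nephron segments were also lower at IRI48h against SHAM24h, where 23.1% of all genes were lower and 28.5% higher. By limma 3 of 4 thick ascending limb markers were lower and 1 higher, with the largest changes in Slc12a1 (log2 -1.72) and Kcnj1 (-1.05). All 3 distal convoluted tubule markers were lower, with Pvalb at -5.92 and Slc12a3, the thiazide-sensitive cotransporter, at -1.70. Of 5 collecting duct markers 4 were lower, of 4 podocyte markers 1 was higher, and the 5 adipocyte markers had log2 differences, without a call, of -2.09 to -0.81.

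Slc22a15, the family gene that rose, was higher by limma in every comparison with SHAM24h, by log2 1.66 at IRI24h, 1.15 at IRI48h, 1.26 at IRI72h, 1.76 at IRI7d, 1.58 at IRI14d and 1.27 at IRI28d. At IRI12m it was 0.78 against SHAM12m (adjusted p = 0.047) and 0.50 against NORM15m (adjusted p = 0.13).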
